A study of Mus musculus with 4 samples.

Results

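The genes described here carry glucose to the end of glycolysis and into or away from the mitochondrion: the pyruvate kinase gene Pkm, the lactate dehydrogenase genes Ldha and Ldhb, the hexokinase genes Hk1 and Hk2, the phosphofructokinase genes Pfkl and Pfkp, the glucose transporter genes Slc2a1 and Slc2a3, and the pyruvate dehydrogenase kinase gene Pdk1. The members were every probe set on the array whose single annotated gene was one of these 10, which gave 21 of 45037 probe sets and covered 10 of 17097 named genes. The RNA came from flow-sorted double-positive (CD4+CD8+) thymocytes of C57BL/6 mice, a stage of T cell development at which both coreceptors are on the cell surface. There were 4 arrays: 2 were labelled hCD2-iCre x Gfi1fl/fl and 2 were labelled WT. In the hCD2-iCre mice a recombinase driven by human CD2 regulatory sequences, which are active in lymphocytes, was combined with floxed alleles of Gfi1, a zinc-finger transcriptional repressor of blood cells. The labels do not describe the WT mice as carrying the recombinase, give no ages, and leave unsaid whether each replicate is its own animal. The p-values therefore rest on array-to-array spread, which may be technical.

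On the arrays labelled hCD2-iCre x Gfi1fl/fl the Pkm signal rose 2.49-fold, and it was the member that passed the test. Ldhb lay on the other side, with signals 2.93-fold and 2.96-fold lower by its 2 probe sets, just outside the threshold. Ldha, the partner of Ldhb, differed by -0.06 on the log2 scale. The other members, which cover glucose entry, hexokinases, phosphofructokinases and Pdk1, differed by between -0.55 and 0.87 over 17 probe sets and were not called. Outside the members, Tigar, which encodes a phosphatase that lowers fructose-2,6-bisphosphate, rose 3.25-fold by 1 of its 3 probe sets.

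Glycolysis splits glucose into pyruvate and yields ATP without oxygen. Glucose enters through facilitative transporters, is trapped by hexokinase, is committed by phosphofructokinase, and leaves the pathway as pyruvate through pyruvate kinase. Lactate dehydrogenase interconverts pyruvate and lactate as a tetramer of A and B chains, and pyruvate dehydrogenase kinase restrains the entry of pyruvate into the citric acid cycle by phosphorylating pyruvate dehydrogenase. In thymocytes glucose use is known to be high in proliferating precursors and lower in resting double-positive cells.

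The deposited values were log2 signals per probe set, with array medians of 3.53 to 3.55. The targeted gene checks the labels: the single named Gfi1 probe set read 11.47 and 11.32 on the arrays labelled hCD2-iCre x Gfi1fl/fl, against 10.17 and 10.08 on the WT arrays. This signal went against the first label, and whether the probe set lies inside the deleted exons is not stated in the labels or the annotation. Each direction below is therefore one between arrays as labelled. Double-positive markers were bright, with means over 9 measured genes (of 10 listed) of 11.04 and 10.87 on the hCD2-iCre x Gfi1fl/fl arrays, against 11.11 and 11.18 on the WT arrays. Dntt, the terminal transferase gene, was the double-positive marker called, with a difference of -0.69.

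Differences were tested with limma over all 45037 probe sets and called at an adjusted p of at most 0.05. By this rule 345 probe sets (0.766%) were called, 299 (0.664%) higher and 46 (0.102%) lower on the arrays labelled hCD2-iCre x Gfi1fl/fl. Of the 21 member probe sets, 1 was called higher, 0 were called lower and 20 were not called. At an unadjusted p of at most 0.05, limma gave 5 of the 21 (23.8%), against 7.64% of all probe sets. The members were chosen with earlier results of these data known, and the 5 include both probe sets of Ldhb. No excess is therefore read from this share. The groups did not overlap for 8 member probe sets (38.1%), against 34.7% of all probe sets, a share near the background. Of these 8, 4 were higher and 4 lower, against 16.8% and 17.9% of all probe sets. The median difference over the 21 was -0.06, and over all probe sets -0.01.

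**Figure D1:**
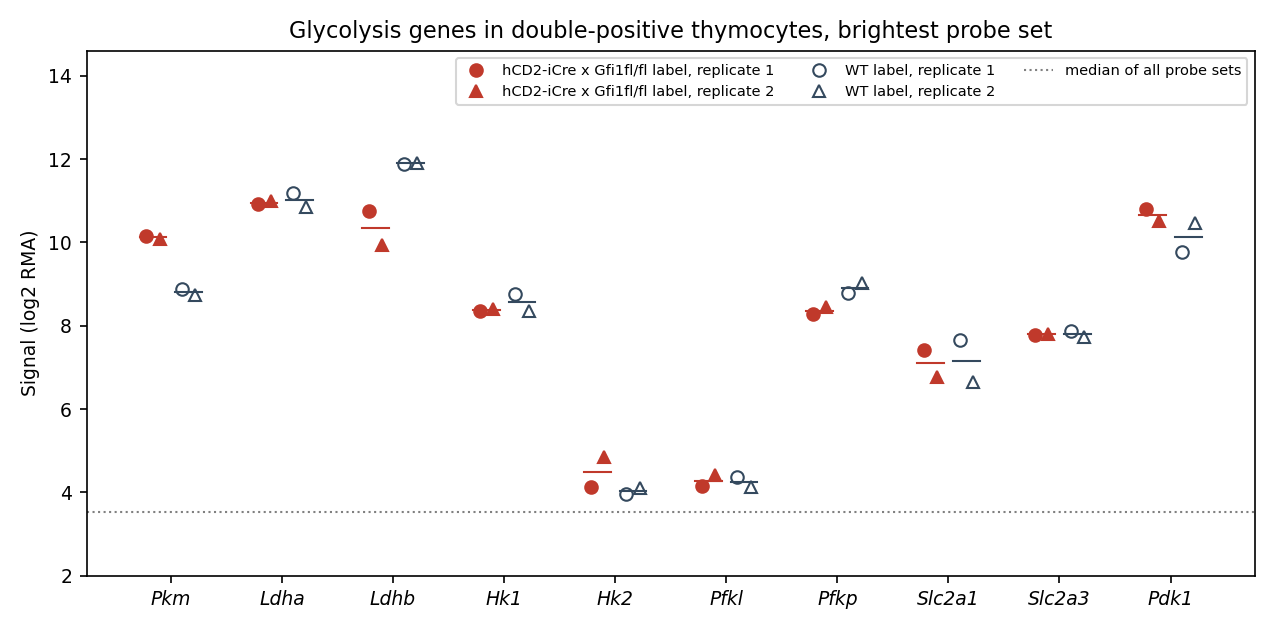
Signal (log2 RMA, vertical axis) of the brightest probe set of each of the 10 members on the 4 arrays. Filled red symbols are the 2 arrays labelled hCD2-iCre x Gfi1fl/fl, open dark symbols the 2 arrays labelled WT, short lines the group means and the dotted line the median of all probe sets. Pkm is higher and Ldhb lower on both hCD2-iCre x Gfi1fl/fl arrays than on both WT arrays, and Hk2 and Pfkl lie not far above the dotted line under both labels.

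Glucose transporters come first in the pathway. Slc2a1, which encodes the widely expressed transporter GLUT1, read 7.42 and 6.76 on the arrays labelled hCD2-iCre x Gfi1fl/fl, against 7.66 and 6.65 on the WT arrays, by its brighter probe set. The groups overlapped, and the replicate 1 array was the higher of each pair. The difference of -0.06 ± 0.39 (SE) was far smaller than this spread (limma, adjusted p = 1.00), and its 95% interval reached from -0.99 to 0.87. The dimmer Slc2a1 probe set showed the same order of replicates, at 5.81 and 5.21 against 6.40 and 5.55, with a difference of -0.46 ± 0.36 (SE; adjusted p = 0.900).

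The proliferation markers also separated the replicates. Their mean over 19 measured genes (of 20 listed) was 8.15 and 9.96 on hCD2-iCre x Gfi1fl/fl replicates 1 and 2, against 8.91 and 9.48 on WT replicates 1 and 2. Under each label the array with the higher proliferation mean was the one with the lower Slc2a1 signal, and the part of the first in the second was not tested. None of the 33 proliferation probe sets was called between the labels (limma; 0 also at an unadjusted p of at most 0.05).

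Slc2a3, which encodes the high-affinity transporter GLUT3, had 4 probe sets and was steady. Its brightest read 7.79 and 7.80 on the arrays labelled hCD2-iCre x Gfi1fl/fl, against 7.87 and 7.72 on the WT arrays, and the groups overlapped. The difference was -0.0029 ± 0.22 (SE), with a 95% interval of -0.52 to 0.51. The other 3 Slc2a3 probe sets differed by between -0.10 and 0.03, and of these a pair lay below the median signal of all probe sets (3.54), where a change could not be judged.

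Hexokinases phosphorylate glucose and so hold it in the cell. Hk1, the constitutive form, read 8.34 and 8.39 on the arrays labelled hCD2-iCre x Gfi1fl/fl, against 8.76 and 8.36 on the WT arrays. The groups overlapped, WT replicate 1 standing above the other 3 arrays, and the difference was -0.19 ± 0.22 (SE; limma, adjusted p = 0.969). Its dimmer probe set gave -0.22 ± 0.21 (SE). Hk2, the inducible form of activated and growing cells, had 1 probe set, which was dim. It read 4.14 and 4.84 on the arrays labelled hCD2-iCre x Gfi1fl/fl, against 3.96 and 4.10 on the WT arrays. The groups did not overlap, but the first was only just above WT replicate 2, and the difference of 0.46 ± 0.27 (SE) was not called (adjusted p = 0.815).

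Phosphofructokinase commits sugar phosphate to glycolysis, and its tetramers are built from liver (Pfkl), platelet (Pfkp) and muscle (Pfkm) chains. Pfkp was the brighter member, at 8.28 and 8.44 on the arrays labelled hCD2-iCre x Gfi1fl/fl, against 8.79 and 9.02 on the WT arrays. Both hCD2-iCre x Gfi1fl/fl arrays lay below both WT arrays. The difference was -0.55 ± 0.21 (SE), with an unadjusted p of 0.0332 and an adjusted p of 0.565 (limma), and the dim second Pfkp probe set gave -0.41 ± 0.20 (SE). Pfkl was dim by all 3 of its probe sets, with differences between -0.08 and 0.02. Its brightest read 4.16 and 4.40 on the arrays labelled hCD2-iCre x Gfi1fl/fl, against 4.38 and 4.14 on the WT arrays, and the groups overlapped.

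Pyruvate kinase makes pyruvate and ATP in the last step of glycolysis, and the Pkm gene gives the M1 and M2 forms by alternative splicing. The single Pkm probe set, 1417308_PM_at, read 10.16 and 10.08 on the arrays labelled hCD2-iCre x Gfi1fl/fl, against 8.88 and 8.73 on the WT arrays. The arrays of each label lay close together and the groups were far apart. The means were 10.12 ± 0.06 and 8.80 ± 0.10 (SD, n = 2 each), and the difference was 1.32 ± 0.17 (SE) on the log2 scale, with a 95% interval of 0.91 to 1.72 (limma, adjusted p = 0.0235). Which exons the probe set reads is not stated in the annotation, so the M1 and M2 forms were not told apart. In sorted populations of this kind more RNA per cell and more cells that express a gene cannot be told apart.

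The Pkm call rests on 2 arrays per label. With any 1 array left out the difference stayed between 1.25 and 1.39. Each such fit takes the spread of Pkm from the 2 arrays of the other label alone, so no call is drawn from it. With the mean of the proliferation markers as a covariate the Pkm difference was 1.31 (limma, adjusted p = 0.00354). That mean differed more between replicates than between labels, so this fit could hardly move a difference between labels. The same fit called 731 of all probe sets, against 345 without the covariate. The part of proliferation in the Pkm difference was not tested.

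Among the 17087 named genes that are not members, the 5 with the array profile most like that of Pkm were Gfi1, Sgk1, Spsb1, Mafg and Relb. Gfi1 and Sgk1 were called (limma, adjusted p = 0.00976 and 0.0417). Spsb1, Mafg and Relb were not called (limma, adjusted p = 0.0982, 0.0896 and 0.0778). Likeness was the root mean square difference between profiles centred on their own mean over the 4 arrays, and it ran from 0.042 for Gfi1 to 0.072 for Relb on the log2 scale. With 4 arrays in 2 groups this is a description of genes that were higher by a similar amount under the same label.

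Lactate dehydrogenase A and B chains differ in that A-rich enzyme is typical of tissues that form lactate and B-rich enzyme of tissues that oxidise it. Ldhb was represented by a pair of probe sets annotated to the same transcript, which are not independent measurements. The brighter, 1448237_PM_x_at, read 10.75 and 9.94 on the arrays labelled hCD2-iCre x Gfi1fl/fl, against 11.88 and 11.91 on the WT arrays. Both hCD2-iCre x Gfi1fl/fl arrays lay below both WT arrays, with replicate 2 the lower, and the WT arrays lay close together. The other, 1416183_PM_a_at, read 10.66 and 9.79 on the arrays labelled hCD2-iCre x Gfi1fl/fl, against 11.74 and 11.84 on the WT arrays.

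The Ldhb differences were -1.55 ± 0.25 and -1.57 ± 0.26 (SE), with 95% intervals of -2.13 to -0.97 and -2.19 to -0.95. Their adjusted p-values of 0.0505 and 0.0654 (limma) missed the threshold. When each gene was represented by its brightest probe set and 17097 genes were tested, Ldhb passed it with an adjusted p of 0.0413 (limma). That test called 190 genes (1.11%), 0.942% higher and 0.170% lower. With the mean of each gene's probe sets over the same 17097 genes, Ldhb missed the threshold (limma, adjusted p = 0.0823). Without WT replicate 1 or WT replicate 2 the difference of the brighter probe set was -1.56 or -1.54. Without hCD2-iCre x Gfi1fl/fl replicate 1 the difference was -1.96, and without replicate 2 of that label it was -1.14. Each of these fits takes the spread of Ldhb from the 2 arrays of the other label alone, so no call is drawn from it.

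Ldha had 1 probe set, which read 10.92 and 10.99 on the arrays labelled hCD2-iCre x Gfi1fl/fl, against 11.19 and 10.84 on the WT arrays. The groups overlapped, with the WT arrays at both ends. The difference was -0.06 ± 0.15 (SE), with a 95% interval of -0.42 to 0.29 (limma, adjusted p = 1.00), so a change of Ldha as large as the measured difference of Ldhb lay outside its interval. Whether the Ldha and Ldhb differences differ from each other was not tested.

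Pdk1 encodes a kinase that inactivates pyruvate dehydrogenase. Its brightest probe set read 10.80 and 10.50 on the arrays labelled hCD2-iCre x Gfi1fl/fl, against 9.78 and 10.46 on the WT arrays. WT replicate 1 stood apart, and WT replicate 2 was close to the lower hCD2-iCre x Gfi1fl/fl array. The 3 Pdk1 probe sets differed by 0.53 ± 0.24, 0.87 ± 0.29 and 0.49 ± 0.34 (SE), all above 0 and none called (limma, adjusted p = 0.693, 0.461 and 0.873). The size rested on WT replicate 1: without it the differences were 0.19, 0.46 and -0.06.

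**Figure D2:**
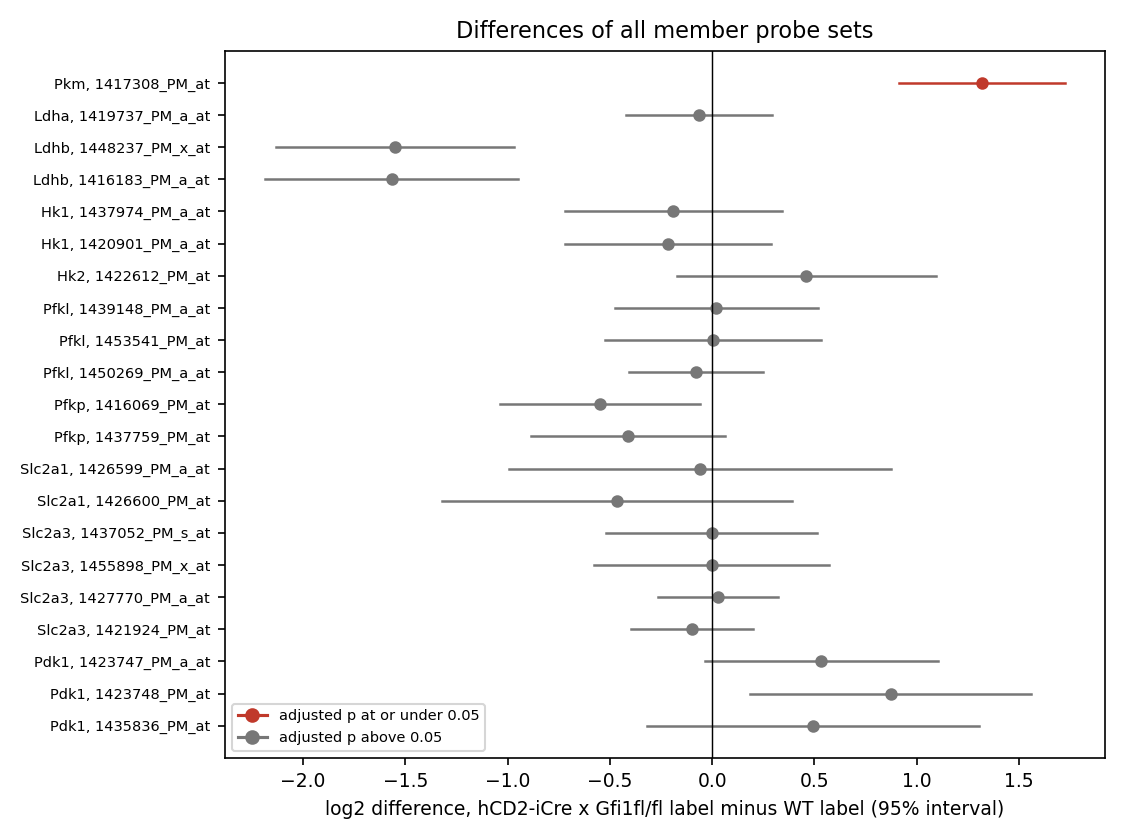
Difference on the log2 scale (horizontal axis, hCD2-iCre x Gfi1fl/fl label minus WT label) with its 95% interval from limma for each of the 21 member probe sets. Red marks an adjusted p of at most 0.05, which Pkm alone reached in this fit, and the intervals of both Ldhb probe sets lie wholly below -0.9.

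Of the 7 members with more than 1 probe set, all probe sets lay on the same side of 0 for 5 (Ldhb, Hk1, Pfkp, Slc2a1 and Pdk1). Probe sets of Pfkl and Slc2a3 lay on both sides, all within 0.10 of 0. Of the 21 member probe sets, 8 had a mean signal under 5 on the log2 scale and 3 lay below the median of all probe sets, and there a change of transcript could not be judged from these values.

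Other genes of glucose use were read from 5 lists with 58 genes, of which 50 were measured by 90 probe sets. Of these 90, 1 was called higher (1.11%) and 0 lower, with a median difference of -0.07. The called probe set, 1439859_PM_at, belongs to Tigar, on the list of phosphofructokinase regulators. Tigar read 5.16 and 5.18 on the arrays labelled hCD2-iCre x Gfi1fl/fl, against 3.34 and 3.60 on the WT arrays. The WT signals lay near the median of all probe sets, so the 3.25-fold difference (1.70 ± 0.20 SE; limma, adjusted p = 0.0164) is one of signals and not of transcript amounts.

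The other Tigar probe sets, both dim, gave 0.41 and 0.32 and were not called (limma, adjusted p = 0.574 and 0.803). With any 1 array left out the difference of the called Tigar probe set ran from 1.57 to 1.83. Such fits have 1 array under a label, and no call is drawn from them. On the same list, Fbp1, which encodes the fructose-1,6-bisphosphatase of gluconeogenesis, read 3.62 and 3.10 on the arrays labelled hCD2-iCre x Gfi1fl/fl, against 4.82 and 4.19 on the WT arrays (-1.14 ± 0.27 SE; adjusted p = 0.214). Of the 11 probe sets of this list, 1 was called.

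None of 27 probe sets for 15 measured glycolytic enzyme genes outside the members was called (limma; 0 at an unadjusted p of at most 0.05), and their median difference was -0.03. The largest differences by brightest probe set were -0.72 ± 0.31 (SE) for Pfkm, the muscle phosphofructokinase, and -0.38 ± 0.24 (SE) for Bpgm, which makes 2,3-bisphosphoglycerate. Gapdh, of the middle of the pathway, differed by -0.08 ± 0.13 (SE), and Pgk1, the phosphoglycerate kinase gene, by -0.04 ± 0.14 (SE). The enzymes between phosphofructokinase and pyruvate kinase thus gave small differences where Pkm gave 1.32.

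Of 14 probe sets for 10 other glucose and lactate transporter genes none was called (limma; 1 at an unadjusted p of at most 0.05). Bsg, the chaperone of lactate transporters, differed by -0.40 ± 0.23 (SE) and Slc2a12 by -0.32 ± 0.13 (SE). The Slc2a12 probe set read 3.06 and 2.90 on the arrays labelled hCD2-iCre x Gfi1fl/fl, against 3.17 and 3.44 on the WT arrays. All its signals lay below the median of all probe sets (3.54), where a change could not be judged. Of 16 probe sets for 11 genes of pyruvate entry and pyruvate dehydrogenase none was called (4 at an unadjusted p of at most 0.05). By brightest probe set, Pdp1, the phosphatase that reactivates pyruvate dehydrogenase, differed by -0.79 ± 0.32 (SE), and Mpc1, of the mitochondrial pyruvate carrier, by -0.22 ± 0.19 (SE). A dimmer probe set of Dlat, a core subunit of the complex, gave -0.94 ± 0.29 (SE) and one of Pdha1, a catalytic subunit, 0.43 ± 0.17 (SE), where the brightest gave -0.07 and 0.19. The values of the brightest Pdp1 probe set were 6.21 and 5.87 on the arrays labelled hCD2-iCre x Gfi1fl/fl, against 7.21 and 6.45 on the WT arrays, which did not overlap.

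Of 22 probe sets for 8 regulators of glycolytic genes or of Pkm splicing none was called (limma; 2 at an unadjusted p of at most 0.05). By brightest probe set, Myc, a transcription factor that drives glycolytic genes, differed by 0.46 ± 0.32 (SE), and Txnip, a restraint on glucose uptake, by -0.22 ± 0.13 (SE). The 2 probe sets at an unadjusted p of at most 0.05 were dimmer ones of Srsf3, a splicing factor gene (-0.73 ± 0.29 SE), and of Txnip (-0.57 ± 0.21 SE). Hif1a, the hypoxia factor, differed by 0.02 ± 0.14 (SE), and Ptbp1, a splicing repressor that favours the M2 form of Pkm, by 0.04 ± 0.14 (SE).

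**Figure D3:**
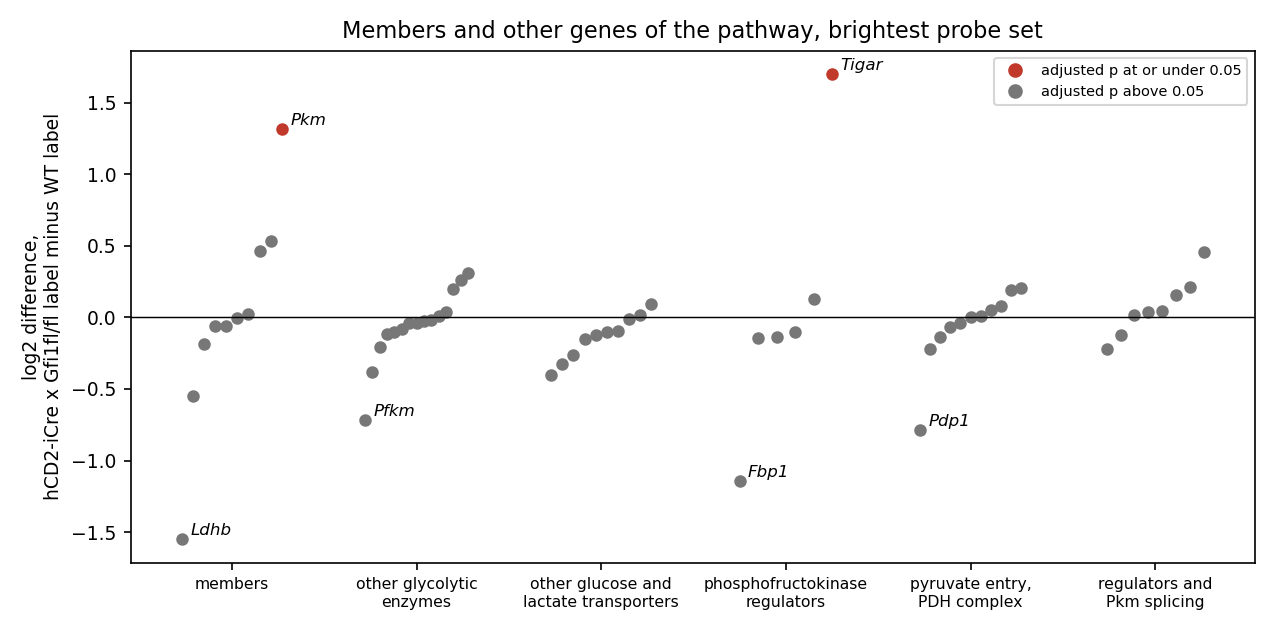
Difference on the log2 scale (vertical axis, hCD2-iCre x Gfi1fl/fl label minus WT label) of the brightest probe set of each member and of the 50 other measured genes of the pathway, by list. Red marks an adjusted p of at most 0.05, reached by Pkm and Tigar. Most genes lie within 0.5 of 0, and those beyond 0.6 are named.

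Promoters are shown for the genes that were called, and for the 2 lactate dehydrogenase genes, whose measured differences were unlike. They are the 250 bases before the first start listed for each gene in a table of RefSeq promoters (GRCm38.p6), and 9 of the 10 members had an entry. The Ldha window lies inside the annotated gene, downstream of its outermost start. Capitals mark matches, on either strand, to any of 4 motifs. The hypoxia response core is ACGTG. The E-box bound by Myc and its relatives is CACGTG, so each E-box is also a match to the hypoxia response core. A FOXO site was searched as GTAAACA. A GFI1 site was searched as AATCAC. The Pkm sequence is chr9:59656326-59656575, plus strand. That of Ldhb is chr6:142507958-142508207, minus strand, and that of Ldha is chr7:46845554-46845803, plus strand. That of Tigar is chr6:127109553-127109802, minus strand.
Pkm: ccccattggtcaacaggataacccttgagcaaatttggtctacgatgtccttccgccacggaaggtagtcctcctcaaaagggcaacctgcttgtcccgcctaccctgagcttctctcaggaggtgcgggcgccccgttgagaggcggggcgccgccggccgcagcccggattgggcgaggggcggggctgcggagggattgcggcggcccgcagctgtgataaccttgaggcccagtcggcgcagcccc
Ldhb: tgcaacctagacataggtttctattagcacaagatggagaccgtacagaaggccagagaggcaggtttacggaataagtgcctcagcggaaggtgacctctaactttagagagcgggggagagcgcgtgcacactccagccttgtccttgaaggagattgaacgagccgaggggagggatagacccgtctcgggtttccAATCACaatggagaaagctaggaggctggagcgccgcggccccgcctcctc
Ldha: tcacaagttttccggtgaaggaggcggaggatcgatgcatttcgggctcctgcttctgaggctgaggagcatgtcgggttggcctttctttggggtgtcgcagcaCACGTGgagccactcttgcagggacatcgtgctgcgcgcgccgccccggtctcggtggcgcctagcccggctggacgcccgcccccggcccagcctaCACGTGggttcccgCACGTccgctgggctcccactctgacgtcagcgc
Tigar: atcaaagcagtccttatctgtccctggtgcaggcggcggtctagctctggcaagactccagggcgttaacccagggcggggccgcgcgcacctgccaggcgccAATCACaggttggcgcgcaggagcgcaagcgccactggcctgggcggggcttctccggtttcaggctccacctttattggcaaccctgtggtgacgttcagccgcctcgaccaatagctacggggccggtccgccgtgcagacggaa

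These windows differ in what they hold. The Pkm window shown had none of the 4 motifs, while the window of a second listed Pkm start held 1 hypoxia response core, 75 bases before that start. The Ldha window shown held 2 E-boxes, which begin 145 and 48 bases before the start site, and a further hypoxia response core at 34 bases, while that of a second listed start held none of the motifs. The Ldhb and Tigar windows each held 1 match to the GFI1 letters, at 51 and 147 bases before the start. Among all 32851 promoter windows of this length, 16.6% held the hypoxia response core and 6.02% the E-box. The FOXO letters stood in 3.17% and the GFI1 letters in 9.14%. A match describes the letters of the window and is not evidence of binding.

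Marker genes of contaminating cell types were read beside these results. Of 38 such genes on 5 lists, 32 were measured by 46 probe sets, and 24 of the 32 lay below the median signal. None was called (limma; 8 of the 46 at an unadjusted p of at most 0.05, against 7.64% of all probe sets). For scale, the groups did not overlap for 34.7% of all single probe sets. Summed levels did not overlap between the labels for 8 thymic epithelial and stromal genes (33.9 and 32.5 on the arrays labelled hCD2-iCre x Gfi1fl/fl, against 32.0 and 30.4 on the WT arrays). Most of that gap was Epcam, an epithelial adhesion gene (1.68 ± 0.40 SE; adjusted p = 0.215). By brightest probe set, Foxn1, Psmb11, Col3a1, Col1a1 and Pecam1 gave between 0.10 and 0.19, while Krt8 and Krt5 gave -0.30 and -0.09. The sums of the innate-like lymphocyte list, with 6 of 8 genes measured, did not overlap either (19.86 and 21.25, against 18.90 and 18.71), and Nkg7 gave the largest difference there (0.99 ± 0.26 SE; adjusted p = 0.277). For 4 of 7 erythroid genes the sums also did not overlap, with the WT arrays the higher (21.66 and 21.97, against 22.08 and 24.07). There Car2, a carbonic anhydrase gene, gave -1.87 ± 0.43 (SE; adjusted p = 0.186). Hba-a1, a haemoglobin gene, went the other way, with 0.83 ± 0.90 (SE) by its brightest probe set and overlapping groups. It read 8.72 and 10.45 on the arrays labelled hCD2-iCre x Gfi1fl/fl, against 7.35 and 10.17 on the WT arrays. Replicate 2 was the higher under each label. Sums overlapped for the B cell and myeloid lists, although Cd79b, a B cell receptor chain, gave -1.23 ± 0.39 (SE; adjusted p = 0.416). The part of these cells in the Pkm, Ldhb and Tigar differences was not tested.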

How the data were processed

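Sorted double-positive thymocytes were profiled on 1-colour Affymetrix arrays after biotin labelling by a 3' IVT kit, per the labels' protocols (1 array for each sample). The authors deposited log2 values. Per the submitters' processing notes RMA was used, with Affymetrix Expression Console 1.1, and the log2 scale was read from the range (2.19 to 13.5). No further normalization was applied, and no detection calls or scanner files were used here. RMA compresses differences of dim probe sets.

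Probe sets were named from the platform annotation (28898 with 1 gene, 551 with several, 15588 not listed). The Entrez IDs of all 21 member probe sets matched RefSeq. Arrays were grouped by title. The limma package (3.58.1, R 4.3.3; lmFit, then eBayes with an intensity trend) compared the labels over all 45037 probe sets, two-sided, with Benjamini-Hochberg adjustment, 2 residual and 5.05 prior degrees of freedom. The test was run on simulated data with independent Gaussian noise drawn from its own fitted prior, which cannot check it for the spread of these arrays. Named genes were every member, called genes of each pathway list or else its 2 largest differences by brightest probe set, and the 5 profiles nearest Pkm. Fbp1, Gapdh, Pgk1, Dlat, Pdha1, Srsf3, Hif1a, Ptbp1 and uncalled cell markers were named after their values were seen. Members, lists and motifs were chosen with earlier results of these data known. Alternatives covered probe set choice, replicate block, proliferation covariate, scaling, dim filters, the prior and left-out arrays. Figures used matplotlib 3.10.9 in Python 3.11.15.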

Additional observations from a re-analysis of the deposited data

How the results depend on the processing

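The number of arrays (2 per label) limits precision. Against 1 of 21 member probe sets, the call counted 2 with the brightest probe set per gene, 3 with the proliferation mean as covariate, 2 after median centring, 3 after a second quantile normalization, 2 without the dimmest 30% or 50%, 2 with a robust prior and 0 with an ordinary t statistic (1 at an unadjusted p of at most 0.05), and 0 to 3 with 1 array left out. Wherever the count rose, the added calls were of Ldhb, lower. Fits with 1 array left out have 1 array under a label, and no call is drawn from their counts here or below. Against 345 of all probe sets, it was 190 with the brightest probe set per gene, 157 with the mean of a gene's probe sets, 731 with the proliferation covariate, 205 without the intensity trend, 1 with an ordinary t statistic and 168 to 368 with 1 array left out. Against 1 of 90 probe sets on the other pathway lists, it was 0 with the mean of a gene's probe sets, 2 with the proliferation covariate, 0 with an ordinary t statistic (3 at an unadjusted p of at most 0.05) and 0 to 1 with 1 array left out. The shared replicate numbers are not said to pair the samples. With the replicate block 1 member probe set, 272 of all probe sets and 1 on the other lists were called (Pkm, adjusted p = 0.0392; Ldhb, 0.0746 for its brighter probe set), and the within-label differences of replicate 2 from replicate 1 correlated at 0.301 over probe sets. Apart from the ordinary t statistic and left-out arrays, the adjusted p of Pkm ran from 0.00354 to 0.0465 and that of the brighter Ldhb probe set from 0.000226 to 0.213.

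Signs turned for uncalled members near 0. Pfkl turned to -0.017 with the mean of its probe sets and -0.0059 after a second quantile normalization, and its second probe set to -0.00034 after median centring. Slc2a3 turned to 0.030 after a second quantile normalization, and its second probe set to 0.0039 there and to 0.014 with the proliferation covariate. With 1 array left out, differences ran from -0.24 to 0.11 for Ldha, -0.39 to 0.011 for Hk1, -0.57 to 0.45 for Slc2a1 and -0.056 to 1.04 for the dimmest Pdk1 probe set. For Pfkl, from the brightest probe set to the dimmest, they ran from -0.10 to 0.15, -0.22 to 0.23 and -0.17 to 0.0075. For Slc2a3 in the same order they ran from -0.074 to 0.068, -0.13 to 0.12, -0.053 to 0.11 and -0.28 to 0.081. The causes were not tested.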
